A study of Mus musculus with 4 samples.

Results

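The complement genes C3, Cfb, Cfi, Masp1, Hc, C6, C8a, C8b and C9 were examined for chromatin accessibility in mouse hepatocytes during liver regeneration. They were chosen by name as complement components that hepatocytes make, with earlier results of these data known, and are 9 of the 31317 protein-coding and lncRNA genes of the autosomes and X that were measured. The data were 4 single-nucleus ATAC-Seq (scATAC-Seq) libraries, in which the Tn5 transposase cuts open DNA and a barcode marks each nucleus. The mice were C57BL/6J, aged 10 to 12 weeks per the labels and male per the methods of the study, on a normal diet, and hepatocytes were isolated by collagenase perfusion. PHx 0 h was undamaged liver without surgery. PHx 48 h, PHx 72 h and PHx 96 h were regenerating liver, taken that long after partial hepatectomy (PHx), in which lobes of the liver are cut away. There was 1 library for each time point, so time and library cannot be told apart and no comparison has a replicate check. A single preparation of hepatocytes gave the 0 h library, and a single mouse that of 48 h. The sources used here do not give whether animals were pooled at 72 and 96 h.

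Complement is a cascade of plasma proteins, most of them secreted by hepatocytes, that marks and kills microbes and clears debris. The classical, lectin and alternative pathways converge on the cleavage of C3, and the terminal components then assemble into the membrane attack complex. Many complement proteins rise in blood in the acute-phase response, and C3 and C5 fragments are known to act in liver regeneration after PHx.

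Promoter sequences are shown for the 3 genes whose level passed 2-fold at 48 h (C3, Hc and C6) and for C9, which carries the same motif as C3. They are the 250 bases before the start site in RefSeq (GRCm38.p6), which had an entry for 6 of the 9 genes (C3, Hc, C6, C8a, C8b and C9). Those of C3 (chr17:57228137-57228386) and Hc (chr2:35061413-35061662) are on the minus strand, and those of C6 (chr15:4726960-4727209) and C9 (chr15:6445096-6445345) on the plus strand. Each is written 5′ to 3′, with matches to the motifs that were searched in capitals.
C3: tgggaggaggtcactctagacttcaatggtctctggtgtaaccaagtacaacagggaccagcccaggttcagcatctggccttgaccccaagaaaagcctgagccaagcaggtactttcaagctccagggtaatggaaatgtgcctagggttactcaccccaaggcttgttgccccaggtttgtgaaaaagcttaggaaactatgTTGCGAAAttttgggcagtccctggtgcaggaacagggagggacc
Hc: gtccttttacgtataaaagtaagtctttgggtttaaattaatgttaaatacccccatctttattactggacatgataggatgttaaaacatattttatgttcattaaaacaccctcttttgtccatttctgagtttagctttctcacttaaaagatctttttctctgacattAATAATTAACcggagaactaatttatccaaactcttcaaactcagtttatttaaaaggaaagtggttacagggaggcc
C6: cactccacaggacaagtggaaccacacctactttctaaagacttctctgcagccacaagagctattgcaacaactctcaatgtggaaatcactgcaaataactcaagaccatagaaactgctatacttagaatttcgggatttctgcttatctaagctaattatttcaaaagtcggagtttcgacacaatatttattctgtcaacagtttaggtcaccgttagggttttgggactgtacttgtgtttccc
C9: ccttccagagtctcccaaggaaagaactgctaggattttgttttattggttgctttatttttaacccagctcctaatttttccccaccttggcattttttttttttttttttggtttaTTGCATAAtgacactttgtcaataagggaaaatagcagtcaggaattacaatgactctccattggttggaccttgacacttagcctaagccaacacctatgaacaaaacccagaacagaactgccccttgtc

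The motifs were TGTTTAC (FOXA), TTGCNNAA (C/EBP), AAGTCCA (HNF4), GTTAAT with any base and ATT after it (HNF1), TTCNNNGAA (STAT) and GGGANTTCC (NF-kB), each on both strands. The C3 promoter held the C/EBP match TTGCGAAA, which began 45 bases before the start, and the C9 promoter held TTGCATAA, which began 132 bases before it. These letters were in 9.57% of 32536 RefSeq promoters of the same length. The Hc promoter held an HNF1 match on the other strand, which began 78 bases before the start, a motif in 0.375% of promoters. The C8a promoter (chr4:104876399-104876648, minus strand) held the STAT match TTCACTGAA, a motif in 7.04% of promoters, which began 228 bases before the start. FOXA, HNF4 and NF-kB letters were in none of the 6 windows, against 3.17%, 3.39% and 1.44% of all promoters. A match is a run of letters and not a bound site.

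Accessibility was measured as counts in peaks (transposase cut sites) over the gene body and 2 kb upstream, summed over nuclei and given as counts per 1000000 counts in peaks (CPM). Nuclei were barcodes with at least 1000 counts, of which there were 3977, 3892, 4256 and 3224 at 0, 48, 72 and 96 h. Depth fell in that order: there were 136582768, 62000846, 24724883 and 14935507 counts in nuclei, with medians of 26005, 11629, 4841 and 3681.5 per nucleus. Peaks were called in each library on its own and covered 153.6, 179.0, 141.2 and 60.9 Mb, so the length of a gene that peaks covered is given beside its level. All 10 hepatocyte markers had counts in every library, with summed levels of 4133 to 5891 CPM. Summed levels were 191 to 306 CPM for endothelial, 110.3 to 240.8 CPM for myeloid, 76.14 to 167.8 CPM for stellate and mesenchymal and 15.95 to 39.51 CPM for biliary markers, with the endothelial, stellate and biliary sums highest at 72 h. Lymphoid markers had 0 to 2.427 CPM except at 48 h, with 47.02 CPM. Between 27 and 60 barcodes were shared by each pair of libraries, which is 0.634% to 1.51% of the nuclei of the earlier library. Intervals are exact 95% Poisson intervals on counts divided by 2, since most fragments were counted at both ends, and they cover counting error only.

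At 48 h, 3 of the 9 genes were at least 2-fold higher than at 0 h (C3, Hc and C6) and 0 were at least 2-fold lower, while 10.7% of 22681 genes were higher and 2.6% lower. At 72 h, 0 were higher and 2 lower (Cfb and Masp1), against 15.2% and 7.06% of genes. At 96 h, 1 was higher (C3) and 3 were lower (Cfb, Hc and C6), against 7.55% and 14.9% of genes. The median log2 ratio of the 9 genes to 0 h was 0.64, -0.15 and -0.32 at 48, 72 and 96 h, and that of all genes was 0.01, 0.04 and 0.06. The genes thus did not move as a block: at 48 h 7 of the 9 were above 0 h, against 50.7% of all genes, and Cfb and Masp1 below it. Cfb and Masp1 were below 0 h in each of the 3 later libraries. The calls at 72 and 96 h lay near 2-fold for several genes. At 96 h C3 was at 1.02 and fell short of 2-fold with every deposited barcode (0.98), scaled to regions with a peak in every library (0.91) or to the median of all genes (0.96), and with the gene body alone (0.92), and it had -3.05 in promoter peaks alone. With scaling to promoter peaks Masp1 had -0.85 at 72 h, and Cfb and Hc had -0.99 and -0.98 at 96 h, so that 1 gene was lower at each time, against 4.87% and 14.0% of genes. The count at 48 h also depended on how counts were taken. With binarised counts (a peak has a count in a nucleus or not) 0 were 2-fold higher or lower, against 6.13% and 1.49% of genes, and C3, Hc and C6 had 0.89, 0.95 and 0.84. At 72 h binarised counts gave 1 gene higher (C3) and 1 lower (Masp1), against 8.65% and 5.84% of genes.

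A second choice, made after the data had been seen, was to take only nuclei with 2000 to 5000 counts. These were 335, 557, 1572 and 1412 nuclei at 0, 48, 72 and 96 h, or 8.42%, 14.3%, 36.9% and 43.8% of the nuclei of each library, so at 0 h they lay far below the usual depth. The share of them with more counts at markers of other cells also differed, at 19.4%, 9.34%, 6.55% and 0.85%. At 48 h, 6 genes were at least 2-fold higher in these nuclei (C3, Cfi, Hc, C8a, C8b and C9) and 1 lower (Masp1), against 4.12% and 6.7% of 9912 genes, with C6 at 0.91. With only those that had more counts at hepatocyte markers, 5 were higher (C3, Cfi, Hc, C6 and C9) and 0 lower, against 4.78% and 6.17% of 7746 genes. Masp1 then had -0.70, C8a 0.68 and C8b 0.93, so the calls of these 3 genes were made only with the other nuclei included. C3 and Hc were the genes past 2-fold at 48 h with all nuclei and in both sets of shallow nuclei.

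**Figure D1:**
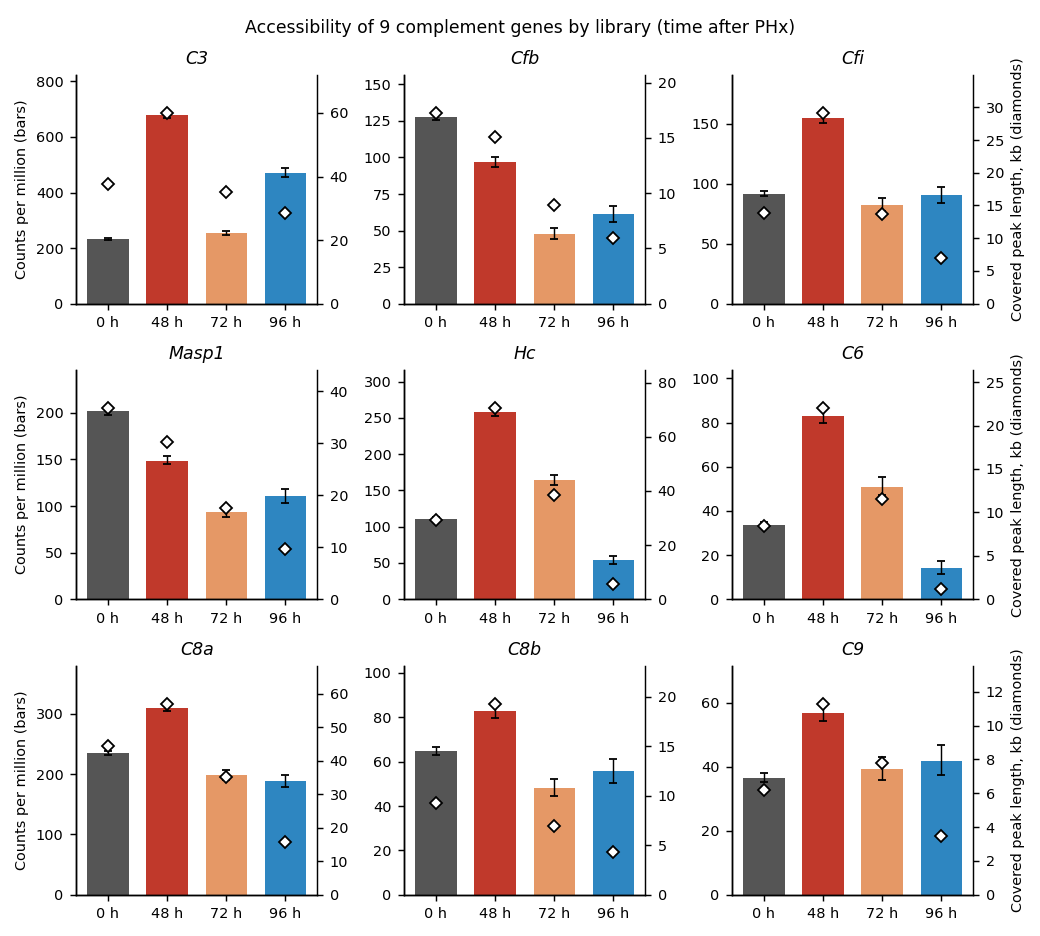
Bars are CPM over each gene and 2 kb upstream in the 4 libraries (left axis, with exact 95% Poisson intervals), and diamonds are the length covered by peaks in kb (right axis). C3 stands at 677.9 CPM at 48 h against 232.9 CPM at 0 h, and for Hc and C6 the bars and diamonds move together from 0 to 72 h.

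C3, the protein on which all 3 activation pathways converge, lies on the minus strand of chromosome 17 (chr17:57203970-57228136, mm10). Its level was 232.9, 677.9, 254.2 and 471.8 CPM at 0, 48, 72 and 96 h, over 37587, 60060, 35270 and 28402 bp of peak. By these counts the level was highest at 48 h and stood near that of 0 h at 72 h. The log2 ratio to 0 h was 1.54 (1.51 to 1.57), 0.13 (0.07 to 0.18) and 1.02 (0.97 to 1.07) at 48, 72 and 96 h. Per covered kb, C3 had 6.2, 11.3, 7.21 and 16.6 CPM, which put it at percentiles 45.7, 95.3, 51.9 and 55.4 among genes with a peak in the same library. Its place among genes was thus high at 48 h and near the middle in the other 3 libraries. The order of the later libraries turned with binarised counts, where the log2 ratio was 0.89, 1.41 and 1.98 at 48, 72 and 96 h. Binarising counts a peak at most once in a nucleus, however long it is, and C3 was called as fewer and longer peaks at 48 h than at 72 and 96 h. Depth per nucleus also differed between these libraries, and the part of peak number, length and depth in this turn was not tested.

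The C3 gene sat inside a single region of open chromatin once peaks of the 4 libraries were merged (chr17:57191481-57251573), which also overlaps Gpr108, Trip10 and Tnfsf14. Counts there cannot be assigned to C3 alone. The region was called as 3 peaks at 0 h, 1 peak of 60060 bp at 48 h, 4 peaks at 72 h and 8 at 96 h, over 56138, 60060, 54043 and 49778 bp. Because the covered length differed little, this region allows a comparison in which length plays a small part. Its level was 359.4, 677.9, 426.7 and 843.5 CPM, or 6.4, 11.3, 7.9 and 16.9 CPM per covered kb. With the usual scaling to all counts in peaks, C3 taken over the whole region had a log2 ratio of 0.92 at 48 h, short of 2-fold, and 0.25 and 1.23 at 72 and 96 h. With both libraries scaled to regions whose covered lengths differed by at most 25%, the log2 ratio to 0 h was 1.04 (1.02 to 1.07), 0.18 (0.14 to 0.22) and 0.46 (0.42 to 0.50) at 48, 72 and 96 h. C3 at 1.04 was just past 2-fold on this scale at 48 h and the only one of the 9 genes that was, where 0.519% of 18700 genes were at least 2-fold higher and 0.0535% lower. The median over all genes on this scale was 0.00, 0.07 and 0.26 at 48, 72 and 96 h.

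**Figure D2:**
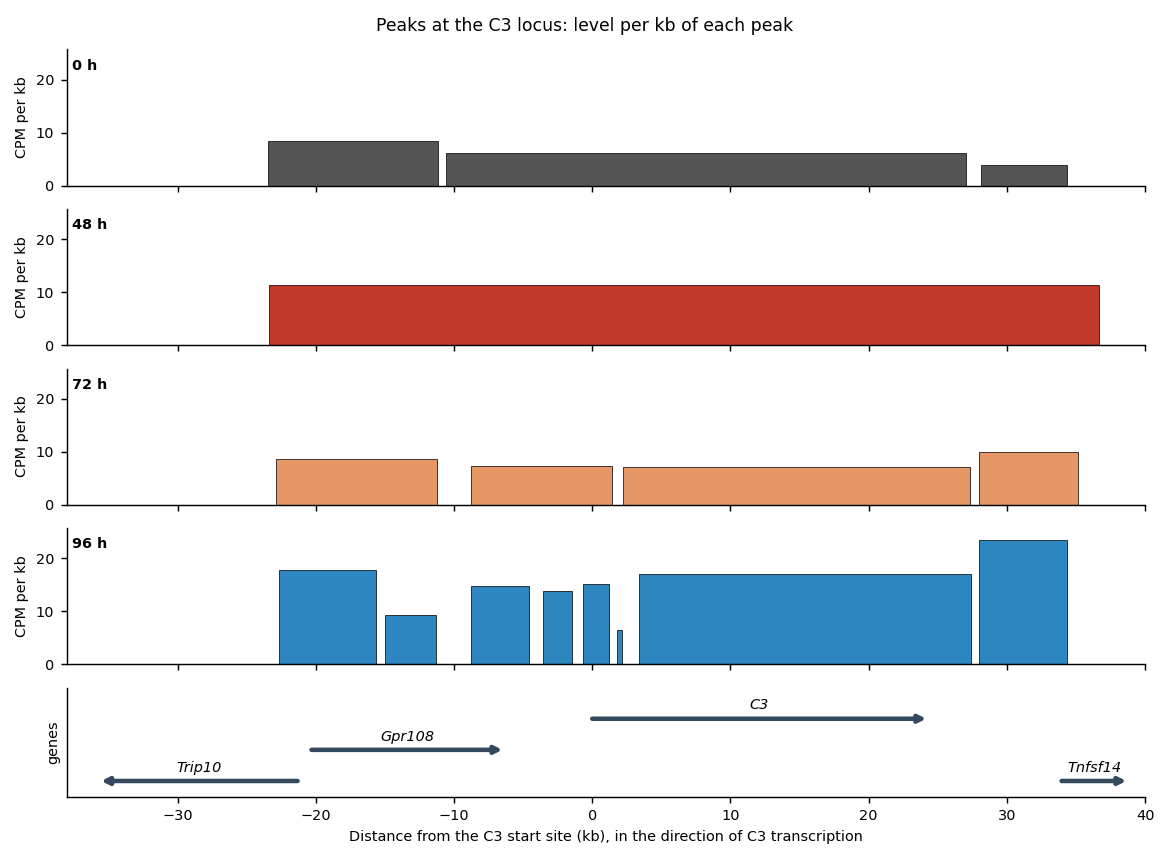
Peaks around C3 in the 4 libraries, with distance from the C3 start site in kb on the x axis, the level of each peak in CPM per kb on the y axis and protein-coding genes as arrows. The 48 h peak is unbroken over 60060 bp at 11.3 CPM per kb, while the peak over the start site is 37587 bp long at 0 h and 1857 bp at 96 h.

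The longest C3 peak was 37587, 60060, 25047 and 23997 bp, and at 96 h that peak covered most of the gene body and not the start site. A promoter peak alone therefore held 232.9, 677.9, 75.31 and 27.99 CPM, over 37587, 60060, 10223 and 1857 bp. In this measure the order of the libraries followed the called length, and 96 h was lowest. At 96 h the peak over the gene body held 17.1 CPM per kb and that over the start site 15.1 CPM per kb, so the short promoter peak had a density near that of its neighbour.

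Cfb encodes factor B, the protease subunit of the alternative pathway convertase (chr17:34856374-34862518, minus strand). Its level was 127.9, 96.85, 47.68 and 61.2 CPM at 0, 48, 72 and 96 h, over 17269, 15067, 8938 and 5931 bp. It was highest at 0 h, and every later library lay below it with no overlap of intervals. The log2 ratio to 0 h was -0.40 (-0.46 to -0.34), -1.42 (-1.55 to -1.30) and -1.06 (-1.20 to -0.93) at 48, 72 and 96 h. C2, its paralogue in the classical and lectin pathways, lies 85 bp from it, and the Cfb region (chr17:34849415-34866683) also overlaps C2, Nelfe, Skiv2l and Gm20547. That region was 1 peak in both the 0 h and the 48 h library, of near-equal length, and its log2 ratio was -0.27 (-0.33 to -0.21). It was called as 4 peaks at 72 h and 3 at 96 h, of which 2 in each library were counted for Cfb. Taken whole, the region had 127.9, 96.85, 69.08 and 91.79 CPM, and Cfb so measured was not past 2-fold at 72 or 96 h. Per covered kb the level of Cfb was 7.41, 6.43, 5.34 and 10.3 CPM, at percentiles 60.2, 64.9, 25.5 and 11.3. Its percentile was thus lower at 72 and 96 h than at 0 and 48 h. Its direction rested on the measure: with counts binarised the log2 ratio was 0.13 at 48 h and 0.07 at 96 h, and per covered kb it was 0.48 at 96 h.

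Cfi encodes factor I, the protease that inactivates C3b and C4b (chr3:129835884-129875332, plus strand). It had 91.59, 154.6, 82.55 and 90.12 CPM, over 13865, 29166, 13737 and 7037 bp. The 48 h library was highest and the other 3 lay close together. The log2 ratio at 48 h was 0.76 (0.70 to 0.81), with a log2 ratio of covered length of 1.07, and it was -0.15 at 72 h and -0.02 at 96 h. The promoter peak did not follow: it held 58.95, 48.21, 33.77 and 55.51 CPM, over 5729, 5760, 3794 and 3369 bp. In the 4 regions of near-equal length at 48 h, Cfi as a whole had a log2 ratio of 0.07 (0.01 to 0.13). The promoter region stood at -0.16 and the other 3, in introns and at the 3′ end, at 0.27 to 0.75.

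Masp1 encodes a serine protease that acts with mannose-binding lectins in the lectin pathway (chr16:23449417-23520815, minus strand). Its level was 201.6, 148.9, 93.75 and 111.0 CPM, over 36726, 30241, 17477 and 9739 bp. As for Cfb, 0 h was highest and 72 h lowest. The log2 ratio was -0.44 (-0.49 to -0.39), -1.10 (-1.19 to -1.02) and -0.86 (-0.96 to -0.76) at 48, 72 and 96 h. That of covered length was -0.28, -1.07 and -1.91. Per covered kb the ratio was -0.16, -0.03 and 1.05, so the fall at 72 h was not seen per length and the direction turned at 96 h. In regions of near-equal length the ratio was -0.22 (-0.27 to -0.17) at 48 h, over 8 regions. The promoter region (chr16:23515338-23521654, also over Rtp4 and Gm45338) had -0.42 (-0.50 to -0.33) at 48 h and -1.05 (-1.20 to -0.91) at 72 h, with covered lengths of 6317, 6224 and 5263 bp at 0, 48 and 72 h. At 72 h, 0.672% of genes were at least 2-fold lower on this scale, and Masp1 was the only one of the 8 members with a value that was.

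Masp1 counts were not particular to nuclei with hepatocyte markers. At 0 h it had 370 CPM (317 to 428) in the 166 nuclei with more counts at markers of other cells than at hepatocyte markers, against 200.1 CPM in nuclei with more at hepatocyte markers. At 48 h these levels were 146 and 148.9 CPM. With hepatocyte-marker nuclei alone, the log2 ratio of each member moved by at most 0.03 at any time.

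Hc encodes C5, whose cleavage starts the terminal pathway (chr2:34983331-35061438, minus strand). Its level was 110.6, 257.7, 164.7 and 53.56 CPM, over 29342, 70575, 38447 and 5752 bp. It was highest at 48 h and lowest at 96 h, with no overlap of intervals between any pair of libraries. The log2 ratio to 0 h was 1.22 (1.18 to 1.27), 0.58 (0.50 to 0.65) and -1.04 (-1.19 to -0.90), and that of covered length was 1.27, 0.39 and -2.35. Per covered kb the level was 3.77, 3.65, 4.28 and 9.31 CPM, so at 48 h the level per length was close to that at 0 h (log2 ratio -0.05), and at 96 h it was higher (1.31). The promoter peak held 45.54 CPM over 7585 bp at 0 h and 47.26 CPM over 7898 bp at 48 h (log2 ratio 0.05). The 48 h library thus had more of the gene body called as peak, at a similar level per kb. Its longest peak was 8866, 16957, 11704 and 1203 bp, and the region with the most counts (chr2:34970017-34987011) was at the 3′ end of the gene and not at the start.

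C6 encodes a terminal component that binds C5b (chr15:4727175-4814967, plus strand). Its level was 33.43, 83.19, 51.04 and 14.13 CPM, over 8467, 21996, 11551 and 1208 bp. As for Hc, 48 h was highest and 96 h lowest, and the intervals of the 4 libraries did not overlap. The log2 ratio was 1.32 (1.23 to 1.40), 0.61 (0.48 to 0.74) and -1.24 (-1.54 to -0.96), and per covered kb it was -0.06 at 48 h and 1.57 at 96 h. The promoter peak was 2986, 14155, 2399 and 1085 bp long and held 20.11, 61.39, 14.07 and 13.06 CPM. At 48 h the peak over the start thus ran on into the gene, at 4.34 CPM per kb against 6.74 CPM per kb at 0 h. C6 was higher in the nuclei with more counts at markers of other cells, with 81.8 CPM (58.3 to 112) against 33.01 CPM at 0 h and 159 CPM (115 to 215) against 82.53 CPM at 48 h. Without those nuclei the log2 ratios of C6 moved by at most 0.03.

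C8a and C8b encode the alpha and beta chains of C8, which inserts into the target membrane. They are neighbours on chromosome 4 with their 3′ ends facing each other, 11130 bp apart (C8b chr4:104766317-104804548, plus strand, and C8a chr4:104815679-104876398, minus strand). C8a had 235.4, 310.3, 198.3 and 187.9 CPM, over 44567, 57063, 35146 and 15745 bp. C8b had 64.82, 82.84, 48.33 and 55.71 CPM, over 9295, 19296, 6912 and 4358 bp. By these levels both were highest at 48 h and neither passed 2-fold at any time. The log2 ratio of C8a was 0.40 (0.36 to 0.44), -0.25 (-0.31 to -0.19) and -0.32 (-0.40 to -0.25), and that of C8b was 0.35 (0.28 to 0.42), -0.42 (-0.55 to -0.30) and -0.22 (-0.37 to -0.07). Per covered kb C8a had 5.28, 5.44, 5.64 and 11.9 CPM. C8b had 6.97, 4.29, 6.99 and 12.8 CPM per covered kb, so on that measure 48 h was its lowest library.

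The counts of C8a lay mostly away from its start. The region with the most counts (chr4:104807231-104836625), which covers the 3′ part of the gene and the space toward C8b, had 146.3, 179.9, 135.1 and 125.1 CPM, while the promoter peak had 25.46, 27.81, 21.52 and 10.91 CPM. In regions of near-equal length the ratio at 48 h was 0.41 (0.37 to 0.45) for C8a and -0.06 (-0.16 to 0.04) for C8b. For C8a the ratio was 0.20 (0.13 to 0.27) with 1 peak in both libraries required and 0.04 per covered kb, so its size rested on the regions taken, and for C8b the interval included 0. The C8b promoter peak varied little in length, at 3129, 3165, 2824 and 2659 bp, and held 27.11, 25.66, 21.23 and 26.85 CPM. With scaling to regions of near-equal length its ratio was -0.78 (-1.0 to -0.57) at 96 h, against a median of 0.26 over all genes on that scale.

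**Figure D3:**
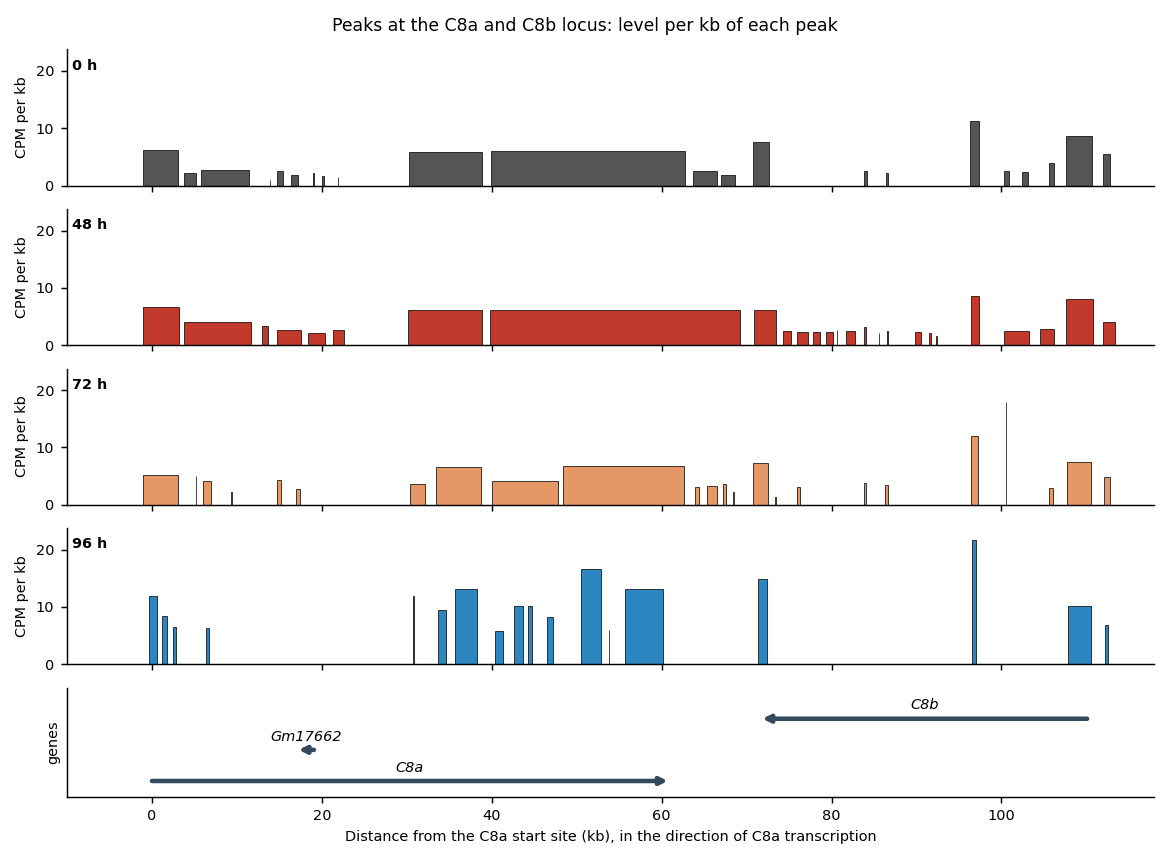
Peaks over C8a and C8b in the 4 libraries, with distance from the C8a start site in kb on the x axis, the level of each peak in CPM per kb on the y axis and protein-coding genes as arrows. The broad peak at the 3′ end of C8a is 22837 bp at 0 h and 29395 bp at 48 h, is split at 72 h and breaks into short peaks at 96 h, where the median log2 ratio of covered length to 0 h over all genes was -1.07.

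C9 encodes the component that polymerises into the pore of the membrane attack complex (chr15:6445327-6498751, plus strand). It had 36.48, 56.92, 39.31 and 41.78 CPM, over 6224, 11292, 7773 and 3450 bp. The level was highest at 48 h and the intervals of the other 3 libraries overlapped. The log2 ratio was 0.64 (0.55 to 0.73), 0.11 (-0.04 to 0.25) and 0.20 (0.02 to 0.37). Most counts of C9 at 0 h were at its promoter, which held 35.64, 40.77, 20.42 and 33.95 CPM over 5865, 6505, 3257 and 2907 bp. The promoter region, of near-equal length at 0 and 48 h, had a log2 ratio of 0.32 (0.22 to 0.42) at 48 h.

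The ratios of level and of covered length were plotted against each other for all genes and the members. At 48 h C3 lay toward the upper edge of the cloud of all genes. At 96 h the median log2 ratio over all genes was 0.06 for level and -1.07 for covered length. At 48 h, 4 members (Cfi, Hc, C6 and C8b) were covered over at least 2-fold more length and 0 over 2-fold less, against 10.5% and 1.94% of genes. Per covered kb, 0 of 9 were 2-fold higher or lower at 48 h, against 0.274% and 0.913% of genes. At 72 h, 0 were covered over 2-fold more length and 1 (Masp1) over less, against 7.88% and 8.44%, and per covered kb 0 were 2-fold higher or lower, against 2.96% and 0.308%. At 96 h, 0 of 9 were covered over 2-fold more length and 6 over less, against 0.0872% and 54.1%, and per covered kb 6 were at least 2-fold higher and 0 lower, against 71.5% and 0.0436%. The 96 h values per kb thus moved with those of genes at large.

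In promoter peaks alone, 2 members were at least 2-fold higher at 48 h (C3 and C6) and 0 lower, against 12.5% and 3.4% of genes. At 72 h 0 were higher and 3 lower (C3, Cfb and Masp1), against 13.3% and 10.1%, and at 96 h 0 were higher and 5 lower (C3, Cfb, Masp1, Hc and C8a), against 8.44% and 16.9%. The part of depth and peak calling in these differences was not tested.

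**Figure D4:**
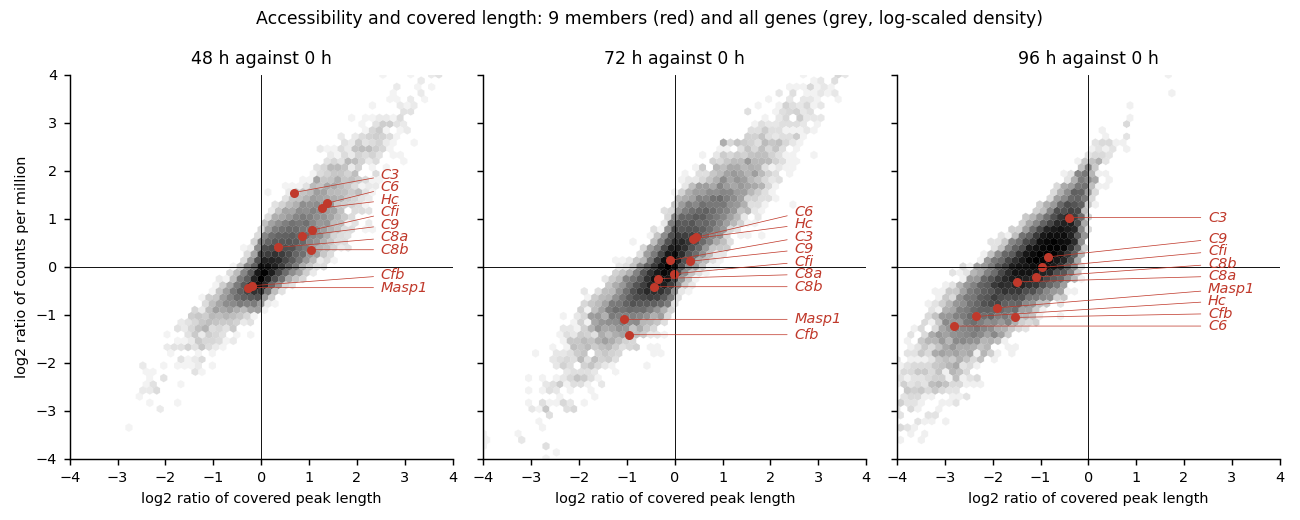
Each panel sets the log2 ratio of CPM to 0 h (y axis) against the log2 ratio of covered peak length (x axis) for the 9 members (red) and all genes with a peak in both libraries (grey, darker where more genes lie). C3 sits toward the upper edge of the cloud at 48 h, with 1.54 against 0.68 in length, while Hc (1.22 against 1.27) and C6 (1.32 against 1.38) lie where both ratios are nearly equal.

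Several members carried long peaks. A peak over 5000 bp was present in 7, 8, 4 and 1 of the 9 genes at 0, 48, 72 and 96 h, against 16.6%, 18.1%, 10.1% and 3.0% of genes with at least 50 counts in the library. A peak over 10000 bp was present in 3, 5, 3 and 1, against 7.7%, 7.19%, 3.29% and 1.2%. C3 was the only member with such a peak in all 4 libraries. The longest peak of C8a was 22837, 29395, 14227 and 4508 bp, and that of Cfb was 17269, 15067, 5436 and 3361 bp.

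Over regions of near-equal covered length, where all 9 genes had a value at 48 h, the median ratio was 0.23 against 0.00 for all genes, and 6 of 9 were above 0, against 50.6% of genes. With 1 peak in both libraries required, C3 dropped out, the median of the other 8 was 0.08 and 0 of 8 were 2-fold higher or lower (background 0.445% and 0.0225%). At 72 h, 8 genes had a value, with a median of -0.23 against 0.07, and 0 were 2-fold higher and 1 lower (background 3.05% and 0.672%). With 1 peak required at 72 h, 0 of 5 were 2-fold higher or lower (background 2.68% and 0.44%). At 96 h only C3 and C8b had regions of near-equal length, and 0 of 2 passed 2-fold (background 12.6% and 0.57%). With 1 peak required only C8b remained, at -0.84 and not past 2-fold (background 10.6% and 0.61%). This measure leaves out the regions whose covered length changed, so it does not describe a gene as a whole where its counts lie mostly in such regions. The value of C6 at 48 h, 0.50 (0.09 to 0.89), rests on 1 region of 671 bp upstream of the gene, with 173 of its 5158 counts at 48 h and 296 of 4566 at 0 h. For Hc the 5 regions used do not include the one with the most counts. Over the regions used, the value at 48 h was 1.04 for C3, 0.50 or less for C6, C8a, C9, Hc and Cfi, and below 0 for Cfb, Masp1 and C8b, with an interval that included 0 for C8b.

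**Figure D5:**
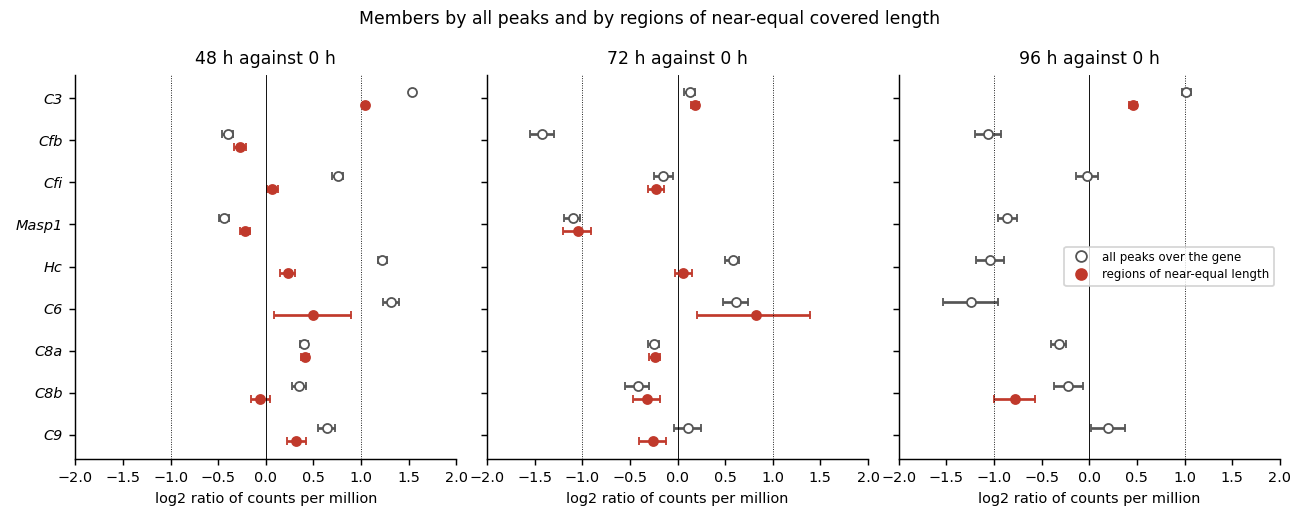
Log2 ratios of CPM to 0 h from all peaks over each gene (open grey) and from regions whose covered lengths differ by at most 25% (red), with 95% counting intervals and dotted lines at 2-fold. At 48 h C3 stays past the line in both (1.54 and 1.04), while Hc goes from 1.22 to 0.23. A missing red point marks a gene without such a region.

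Between successive libraries, all 9 genes were lower at 72 h than at 48 h, against 44.0% of 22641 genes, by log2 ratios of -0.53 (C9) to -1.41 (C3). From 72 to 96 h, C3 was higher by 0.89 (0.82 to 0.96), and Hc and C6 were lower, with -1.62 (-1.78 to -1.47) and -1.85 (-2.16 to -1.55). The other 6 genes lay between -0.08 and 0.36. These steps hold for all peaks over each gene, with the covered lengths given above.

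In single nuclei thinned to 2000 counts, a count over C3 was present in 33.5% (32.0 to 35.1), 64.0% (62.4 to 65.6), 30.9% (29.4 to 32.4) and 45.7% (43.7 to 47.7) of 3719, 3579, 3620 and 2484 nuclei at 0, 48, 72 and 96 h (exact binomial intervals). Thinning left out 258, 313, 636 and 740 shallower nuclei, and without it the shares were 82.2%, 87.6%, 47.7% and 58.8%. In nuclei with more counts at markers of other cells the thinned shares were 12.4%, 22.9%, 13.4% and 38.5%, over 137, 83, 119 and 13 nuclei. C3 was thus above this background at 0, 48 and 72 h, and at 96 h the 13 nuclei were too few to tell (13.9% to 68.4%). Median depths before thinning were 28195.5, 12439.5, 5228 and 3837 counts in nuclei with more counts at hepatocyte markers, and 4197, 2547.5, 1972 and 1525 in the others.

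A count over C8a was present in 34.6%, 40.5%, 25.6% and 24.5% of thinned nuclei, and in 1.46%, 9.64%, 13.4% and 15.4% of those with more counts at markers of other cells. For C8b the shares were 11.0%, 12.9%, 7.43% and 8.33%, against 0%, 0%, 2.52% and 7.69%. The count of 0 at 0 h, of 137 nuclei, has an upper limit of 2.66%. C8a thus had the highest ratio of the thinned share in all nuclei to that in other nuclei at 0 h among the 8 members with a count in the other nuclei, where the latter is 2 of 137 for C8a, and the ratio of C8b has no upper bound there. For C6 the shares were 5.57%, 13.0%, 7.87% and 2.29%, against 9.49%, 16.9%, 11.8% and 7.69% in the other nuclei, where the last is 1 of 13. For Masp1 they were 32.0%, 21.2%, 13.1% and 16.4%, against 37.2%, 22.9%, 13.4% and 7.69%. Thinned to 1000 counts, the shares of C6 were 7.17% against 5.97% at 48 h and 3.92% against 3.66% at 72 h, and those of Masp1 12.4% against 9.7% at 48 h. The shares of both genes thus lay near or below those of the other nuclei at 0, 48 and 72 h with no fixed order, and neither is read as a share of hepatocytes with the gene open. Nuclei with a count in at least 5 of the 9 genes made up 1.34%, 5.17%, 0.773% and 0.242% of thinned nuclei, and those with none 13.6%, 5.59%, 22.4% and 22.2%.

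Hepatocyte function varies from the portal to the central vein, and the members were compared between the 25% of nuclei most toward pericentral and the 25% most toward periportal marker counts in each library. C9 was lower in the pericentral nuclei of each library, with log2 ratios of -0.46 (-0.63 to -0.28), -0.65 (-0.86 to -0.44), -0.71 (-1.13 to -0.28) and -0.77 (-1.36 to -0.19) at 0, 48, 72 and 96 h. C3 was lower there too, with -0.13 (-0.19 to -0.06), -0.33 (-0.39 to -0.27), -0.52 (-0.68 to -0.36) and -0.66 (-0.83 to -0.50). C8a had -0.25, -0.40, -0.19 and -0.30, with intervals below 0 in each library, and Hc had -0.43, -0.41, -0.24 and -0.36, with an interval that included 0 at 96 h. C8b had an interval that included 0 in each library. Cfb, Cfi and Masp1 were lower in the pericentral nuclei at 0 h, with -0.14 (-0.23 to -0.05), -0.20 (-0.30 to -0.09) and -0.28 (-0.35 to -0.21), and their intervals included 0 in the 3 later libraries. C6 had no one direction, with 0.20 (0.02 to 0.38), 0.11 (-0.07 to 0.28), -0.63 (-0.99 to -0.27) and 0.75 (-0.20 to 1.81). The pericentral nuclei were deeper, with medians of 39488, 14568.5, 6385 and 4708.5 counts against 21136, 9981.5, 4515 and 3282, and the part of depth in these differences was not tested.

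The other complement genes, a list of 44, were measured in the same way. At 48 h, 4 of the 35 with enough counts were at least 2-fold higher and 0 lower, against 10.7% and 2.6% of all genes. At 72 h, 5 of 35 were higher and 7 lower, against 15.2% and 7.06%, and at 96 h, 5 of 34 were higher and 12 lower, against 7.55% and 14.9%. Of those lower, 1 of the 7 at 72 h and 6 of the 12 at 96 h are genes with 0 counts and no called peak in the later library. Their medians were -0.03, -0.06 and -0.35.

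C4bp, the C4b-binding protein and a soluble regulator, had 76.06, 161.2, 125.6 and 155.1 CPM, with 1.08 (1.03 to 1.14) at 48 h and 1.03 (0.93 to 1.12) at 96 h. C2, next to Cfb, had 230.6, 151.0, 68.76 and 80.95 CPM, with -1.75 (-1.85 to -1.65) at 72 h and -1.51 (-1.63 to -1.39) at 96 h. In its promoter peak alone C2 had -0.61 and -0.28 at these times. The peak over Cfb at 0 and 48 h runs on into C2, so its counts are in the levels of both genes. C4a and C4b, near-identical paralogues between which reads can be split, had -1.13 and -1.04 at 72 h and -1.06 and -1.31 at 96 h. Cpn1 and Cpn2, the chains of the carboxypeptidase that inactivates anaphylatoxins, had -1.47 and -1.24 at 72 h and -1.34 and -1.15 at 96 h. Serping1, the C1 inhibitor, had -1.25 at 72 h, and C1ra, a protease of the C1 complex, had -1.51 at 96 h.

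The other genes past 2-fold included membrane regulators and receptors. Cd55, which speeds the decay of convertases, had 7.819, 12.56, 20.51 and 19.55 CPM, with log2 ratios of 1.39 (1.17 to 1.61) at 72 h and 1.32 (1.05 to 1.59) at 96 h, and its relative Cd55b had 1.02 at 96 h. Cr2, a receptor for C3 fragments that B cells carry, had 1.07 at 72 h and 1.43 at 96 h. The lectin Colec11 had 0.5052, 3.129 and 7.563 CPM at 0, 48 and 72 h, and C1qc, a myeloid gene, had 0.7688, 2.016 and 4.489 CPM. C1qb had a ratio of 1.31 at 72 h. Both C1qb and C1qc were at 0 counts at 96 h, as were C1s2, Colec10, Colec11 and Itgam, and Cfd was at 0 at 72 and 96 h, and no fold is given for these. The terminal gene C8g, which encodes the third chain of C8, had 35.69, 26.98, 23.94 and 30.67 CPM and passed 2-fold at no time. C7, the remaining terminal gene, had 0 counts in every library. For each of these genes 0 counts means that no peak was called there in that library, so its accessibility was not measured.

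Genes were also ranked by how near their 3 log2 ratios to 0 h lay to those of a member (Euclidean distance), among 19611 genes with at least 500 counts at 0 h. Genes that shared a peak with the member were left out, as those under the C3 peak would be. The nearest gene to C3 was Fbxo44 at a distance of 0.426, followed by the metallothionein gene Mt1 and Gm39228, both at 0.436 and with the same values. The nearest genes to the other members lay at 0.031 to 0.0995: Gsk3a for Cfb, Ect2 for Cfi, Trip4 for Masp1, Hist1h2ag for Hc, Mybpc3 for C6, Lrrc29 for C8a, 1700084C06Rik for C8b and Rnf225 for C9. C3 was thus the member farthest from its nearest gene without a shared peak over these 4 libraries. Likeness here is over 3 ratios that share the 0 h library.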

How the data were processed

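The deposited matrices hold counts, the whole number of transposase cut sites per peak and barcode, made by the authors with Cell Ranger ATAC (version 1.1.0, mm10, per the submitters' processing notes), which aligned reads, removed duplicates and called peaks separately in each library. Between 87.3% and 88.6% of values were even. No peak ran past a chromosome end of GRCm38. The sources used here give no cutoffs for the study's filter on nuclei, and no doublet caller was run.

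Counts of barcodes with at least 1000 counts were summed over peaks that touch a gene (GENCODE vM21) or 2 kb upstream, and scaled to CPM (counts per 1000000 counts in peaks). Log2 ratios used 0.5 added to each count. A gene was tested with a mean of at least 50 counts over both libraries, and called at 2-fold or more. A promoter peak lay within 1000 bp of the start. Shares of nuclei were taken after thinning to 2000 counts. With 1 library per time point no test was run. The ratio functions were tested on simulated data. Python 3.11.15, NumPy 2.4.6, SciPy 1.17.1, pandas 2.3.3 and matplotlib 3.10.9 were used.

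The members and lists were chosen with earlier results of these data known. Named genes were the 9 members, other complement genes past 2-fold with at least 100 counts in the larger library, and for each member the genes nearest in their 3 ratios. A gene that this rule names is not reported here. Chosen after their values were seen were C8g, C7 and genes at 0 counts. Alternatives were the count minimum, the nuclei, binarising, the scaling, the window, the peaks and the lengths.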

Additional observations from a re-analysis of the deposited data

How the results depend on the processing

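No paired analysis was possible because each time point had 1 library, and for the same reason no replicate could be left out. Of 27 log2 ratios of members to 0 h, all 27 kept their sign with hepatocyte-marker nuclei alone, without the 5% of nuclei with the most counts, with the gene body alone, with 5 kb upstream, and with scaling to shared regions or to the median of all genes. Per covered kb, 12 of 27 kept it, with promoter peaks alone 19, with binarised counts 22, in nuclei with 2000 to 5000 counts 21, and in those of them with more hepatocyte-marker counts 21 of 26. Per covered kb the ratios of Hc and C6 were -0.05 and -0.06 at 48 h, and those of Cfb, Hc and C6 were 0.48, 1.31 and 1.57 at 96 h. With binarised counts Cfb had 0.07 at 96 h, and with promoter peaks alone C3 had -3.05 at 96 h, where its promoter peak was short. The cause was not tested beyond that. In the counts that follow, the share of all genes called in the same setting stands in brackets. The 3 genes higher at 48 h became 0 with binarised counts (6.13%), 0 per covered kb (0.274%), 0 with near-equal length and 1 peak (0.445%), 1 with near-equal length and any number of peaks (0.519%), 6 in nuclei with 2000 to 5000 counts (4.12%), where 1 was lower (6.7%), and 5 in those of them with more hepatocyte-marker counts (4.78%). All peaks of the merged regions gave 2 (9.57%), without C3 at 0.92. At 72 h binarised counts gave 1 higher (C3 at 1.41, 8.65%) in place of 0 and 1 lower (Masp1, 5.84%) in place of 2. The 2 lower at 72 h became 1 with scaling to promoter peaks (Cfb, 4.87%), regions with a peak in every library (Cfb, 6.14%), near-equal length with any number of peaks (Masp1, 0.672%) or all peaks of the merged regions (Masp1, 3.74%), and 0 per covered kb (0.308%) or with near-equal length and 1 peak (0.44%). The 1 higher at 96 h (C3, at 1.02) became 0 with every deposited barcode (7.34%), scaling to shared regions (5.87%) or to the median of all genes (6.51%), the gene body alone (7.33%), promoter peaks alone (8.44%) and near-equal length with 1 peak (10.6%) or any number (12.6%), and 6 per covered kb (71.5%). The 3 lower at 96 h became 1 (C6) with binarised counts (12.1%), scaling to promoter peaks (14.0%) or all peaks of the merged regions (9.55%), 5 with promoter peaks alone (16.9%), and 0 per covered kb (0.0436%) and with near-equal length and 1 peak (0.61%) or any number (0.57%), where 1 and 2 genes had a value. At a length ratio of 1.1 no member had a value at 96 h. Merged regions, near-equal length with any number of peaks and both sets of nuclei with 2000 to 5000 counts were chosen after seeing the data.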
